A study of Gallus gallus with 18 samples.

Results

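Messenger RNA was compared in the sperm of Arbor Acres breeder roosters, a broiler breeder chicken, fed folic acid at 5 mg per kg of feed (folate-enriched, FE) or at 0.25 mg per kg (control, FCON). The comparison used 6 of the study's 18 libraries, 3 per diet, and the 8811 of 23741 listed genes that reached at least 1 FPKM (fragments per kilobase of transcript and 1000000 mapped fragments) in at least 3 of these 6 libraries. The other 12 libraries were labelled as livers of the roosters and of their day-old offspring, 3 per diet each. They were used here only as a check on tissue and for a comparison of spread between libraries. W chromosome genes, carried by hens, took 1117, 1063 and 1015 counts per 1000000 in the 3 FCON livers labelled rooster. In the 3 FE livers labelled rooster they took 0, 2.07 and 1.41. The origin of this was not tested, and the rooster liver ranges and spread below hold all 6. The question the design poses is whether a father's folate intake is read out in the RNA of his sperm.

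All FE and FCON sperm came from the same commercial strain and, by the labels, from roosters of 35 weeks, except that FE replicate 3 was labelled 36 weeks. No transgene, drug or injury was involved, and the control feed also held folic acid, so FCON birds were not folate-free. The titles number roosters within each diet, but nothing states whether a library held the semen of 1 bird or of several. The p-values below therefore measure the spread between these libraries, part of which may be technical.

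Folate carries the methyl groups that remake methionine, and methionine becomes S-adenosylmethionine, the donor for DNA, histone and RNA methylation. A spermatozoon has a condensed nucleus that transcribes little or nothing, so most of its RNA is left from the spermatid stage in the testis, when genes for the tail axoneme, the acrosome and chromatin compaction are read. Semen also holds epithelial cells, leukocytes and secretions of the genital tract, and their RNA is sequenced with that of the sperm.

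The labelled cell type was checked against marker lists. Summed over the 27 listed markers of late spermatids and sperm, 22 of which passed the filter, FPKM were 1625, 942 and 2450 in FE sperm and 279, 3884 and 732 in FCON sperm, against 8.75 to 34.9 in the rooster livers. TPPP2, a tubulin-polymerization-promoting protein, averaged 823 FPKM in sperm. TSSK6L2, a testis-specific serine/threonine kinase, averaged 264 FPKM, and PLCZ1, the sperm phospholipase that starts calcium waves in the egg, averaged 107 FPKM. RNA of other cells was also present, and the epithelial keratins KRT19 and KRT8 averaged 139 and 47.5 FPKM. The defensins AvBD10 and AvBD9, antimicrobial peptides made by epithelia and heterophils, averaged 20228 and 15002 FPKM. Together these defensins took 0.797% to 4.17% of counts in sperm and 0.322% to 1.31% in rooster liver, so they were not particular to semen. The heterophil list was mixed. AvBD2, AvBD4, AvBD6 and AvBD7 were at 0 in all 6 libraries, whereas EXFABP averaged 46.4 FPKM, S100A9 32.2, LYZ 19.8 and SRGN 10.3. Leukocyte lists were mixed: FCER1G, an Fc receptor subunit, averaged 15.5 FPKM, GNLY, a granule protein of cytotoxic lymphocytes, 153 FPKM and IGLL1, on the B cell list, 29.4 FPKM, whereas the pan-leukocyte marker PTPRC averaged 0.235 FPKM and CD4, CD8B, IL7R and PAX5 were at 0 in all 6 libraries. On the list of spermatogonia and meiotic germ cells ID4 averaged 40.8 FPKM and UCHL1 26.5 FPKM, with KIT and SYCP1 at 0. Of the endothelial markers VWF and CDH5 were at 0, whereas PECAM1 averaged 0.183 FPKM and EGFL7 3.36 FPKM. The 33 listed hepatocyte markers summed to 596, 227 and 663 FPKM in FE sperm and 479, 460 and 471 FPKM in FCON sperm, against 53285 to 101307 FPKM in the rooster livers; TF, transferrin, averaged 271 FPKM and ALB 5.33 FPKM in sperm.

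The 6 libraries held 23762812 to 33692497 counts, and their make-up varied widely within each diet. Nuclear ribosomal RNA took 5.85%, 50.2% and 2.35% of counts in FE replicates 1 to 3 and 10.6%, 4.71% and 16.9% in FCON replicates 1 to 3. LOC112530621, an uncharacterized gene on chromosome Z (70409862 to 70415814, minus strand), took 43.2%, 8.12% and 34.8% in FE sperm and 45.3%, 34.5% and 23.5% in FCON sperm. It took at most 0.0596% of any liver library, and its log2 difference was -0.44 ± 0.65 (SE). FE replicate 2 thus stood apart by its rRNA and its low share of LOC112530621. The 3 most abundant retroviral Gag genes together took 9.98%, 19.1% and 3.61% in FE sperm and 17.2%, 3.43% and 10.8% in FCON sperm. The number of genes at 1 FPKM or more was 7828, 6363 and 9617 in FE sperm and 6859, 9999 and 8494 in FCON sperm. On the first 2 principal components, FE replicate 2 and FCON replicate 1 lay farthest out, and the closest pair of libraries, with a log-CPM correlation of 0.896 across genes, was FE replicate 3 and FCON replicate 2. Part of each difference below may move with these shares, and their part was not tested.

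**Figure D1:**
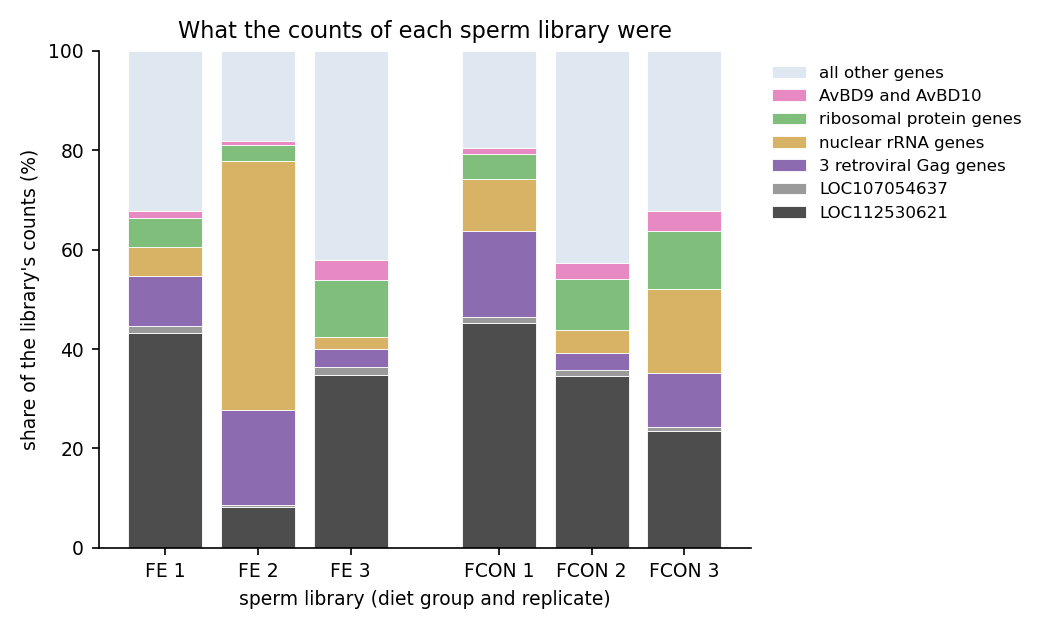
Share of all counts (percent, y axis) taken by the main gene classes in each sperm library (x axis), FE left of FCON; each stacked bar adds up to all counts of a library. Nuclear rRNA takes 50.2% in FE replicate 2 and at most 16.9% in the other libraries, and LOC112530621 takes 8.12% there and at least 23.5% elsewhere.

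No gene differed between FE and FCON sperm at an adjusted p below 0.05. edgeR's quasi-likelihood test with Benjamini-Hochberg adjustment called 0 of 8811 genes higher and 0 lower (0% each way), and the smallest adjusted p was 0.906. At an unadjusted p below 0.05, edgeR counted 112 genes higher in FE (1.27%) and 186 lower (2.11%). The split depended on the scaling: it was 149 higher and 158 lower with DESeq2's size factors in edgeR, and 166 higher and 130 lower with rRNA genes left out before TMM. DESeq2 also called 0 genes, with 434 at an unadjusted p below 0.05, and limma with sample weights called 0, with 1289. limma on log2(FPKM + 1) called 1 gene, the microRNA gene MIR6596, 3.45 higher in FE on that scale (adjusted p = 0.0113), with 201 genes at an unadjusted p below 0.05. All 3 FE values lay above all 3 FCON values in 334 genes (3.79%) and below them in 574 genes (6.51%). The fitted log2 difference, FE minus FCON throughout, was positive in 3902 genes and negative in 4909, with a median of -0.09.

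The intervals were wide. The median 95% interval reached 1.19 on the log2 scale to either side of its estimate, and in 527 genes (5.98%) the whole interval lay within a 2-fold change in either direction. In the other genes the interval reached past a 2-fold change in at least 1 direction. The biological coefficient of variation, edgeR's measure of spread between libraries of 1 group, was 56.2% in sperm, 41.9% in offspring liver and 26.5% in rooster liver.

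**Figure D2:**
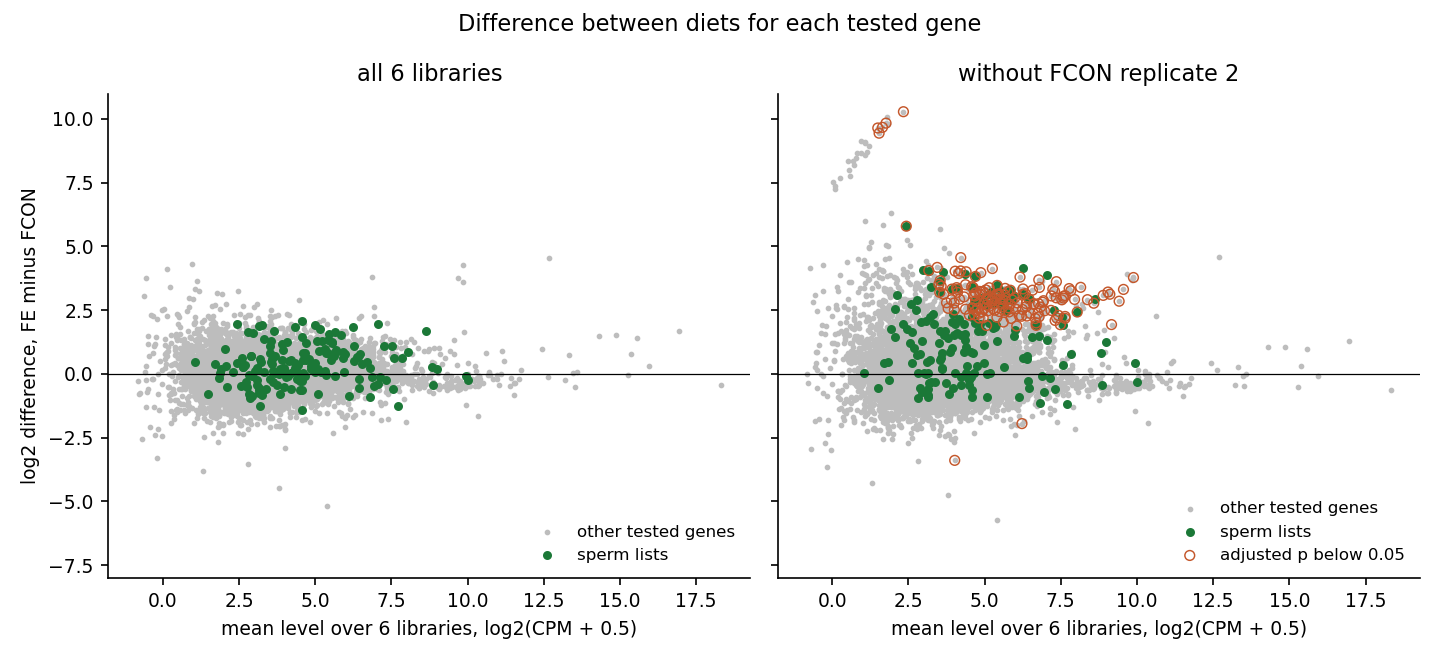
Log2 difference FE minus FCON of each tested gene (y axis) against its mean level over the 6 libraries (x axis, log2 of CPM + 0.5), fitted with all 6 libraries (left) and without FCON replicate 2 (right); filled green points are members of the sperm lists and open circles mark an adjusted p below 0.05. No gene is circled on the left and 154 higher and 2 lower genes on the right, where the separate string of points at the upper left is genes with no count in FCON replicates 1 and 3.

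Among genes higher in FE, those nearest to a call are given in CPM (counts per 1000000, scaled by edgeR's TMM factors). LINGO1 (chromosome 10, 3191002 to 3290700) had 16.8, 11.2 and 6.23 CPM in FE sperm and 1.42, 3.45 and 1.96 CPM in FCON sperm, a log2 difference of 2.31 ± 0.57 (SE; edgeR adjusted p = 0.906). All FE values were above all FCON values, but the levels are low. DAP3 (chromosome 25, 3602408 to 3610751), a protein of the mitochondrial ribosome, had 68.8, 127 and 69.4 CPM in FE sperm and 18.3, 43.3 and 21.4 CPM in FCON sperm, a difference of 1.67 ± 0.48. DUSP15 (chromosome 20, 10068953 to 10075652), a dual-specificity phosphatase, had 52.4, 80.0 and 32.7 CPM in FE sperm and 6.34, 25.8 and 8.37 CPM in FCON sperm, a difference of 2.02 ± 0.62. The groups did not overlap in either gene, and FCON replicate 2 was the highest FCON library in both. CTSA, the lysosomal protective protein cathepsin A, had 71.3, 54.2 and 50.5 CPM in FE sperm and 28.7, 31.2 and 22.7 CPM in FCON sperm, a difference of 1.09 ± 0.35. RRNAD1 had 41.7, 9.38 and 31.5 CPM in FE sperm and 8.68, 3.07 and 4.36 CPM in FCON sperm, a difference of 2.37 ± 0.65. FE replicate 2 was close to the highest FCON library in that gene.

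In a further pair on the higher side 1 library set most of the size of the difference. EYY68_mgr02 had 228, 4109 and 235 CPM in FE sperm and 150, 127 and 56.4 CPM in FCON sperm, and EYY68_mgr01 had 317, 4612 and 205 CPM in FE sperm and 164, 169 and 87.2 CPM in FCON sperm. The reference annotation lists the mitochondrial genes with these tag endings as ribosomal RNA. FE replicate 2, the library with the most nuclear rRNA, was far above all others in both. FE replicates 1 and 3 were also above every FCON library in both genes, an order that 3.79% of all tested genes showed.

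On the lower side RHOA (chromosome 12, 3243950 to 3262304), the small GTPase that drives contractile actin fibres, had 44.8, 112 and 69.2 CPM in FE sperm and 232, 214 and 331 CPM in FCON sperm, a log2 difference of -1.78 ± 0.46 (edgeR adjusted p = 0.906). MYH9 (chromosome 1, 51734199 to 51820934), the heavy chain of non-muscle myosin, had 29.0, 22.6 and 33.0 CPM in FE sperm and 103, 87.9 and 48.7 CPM in FCON sperm, a difference of -1.50 ± 0.41. MCF2 (chromosome 4, 5023347 to 5073394), a guanine nucleotide exchange factor, had 44.4, 24.3 and 37.4 CPM in FE sperm and 131, 59.5 and 149 CPM in FCON sperm, a difference of -1.68 ± 0.48. All FE libraries were below all FCON libraries in these 3 genes, which 6.51% of all tested genes also showed.

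UPK1B, a uroplakin of epithelial surfaces, had 7.47, 3.47 and 5.17 CPM in FE sperm and 20.7, 9.12 and 36.8 CPM in FCON sperm, a difference of -2.04 ± 0.59. SLC12A1, a sodium-potassium-chloride cotransporter of epithelia, had 0.665, 2.92 and 0 CPM in FE sperm and 24.7, 15.9 and 36.3 CPM in FCON sperm, a difference of -4.49 ± 1.30. The groups did not overlap in either gene. Both are epithelial genes, and the 25 listed markers of genital tract epithelium summed to 1072, 509 and 1003 CPM in FE sperm and 1225, 685 and 1238 CPM in FCON sperm. Of the 14 tested markers 3 had a positive and 11 a negative difference, with a median of -0.35, and GRHL2, an epithelial transcription factor, was the one with an unadjusted p below 0.05, at -1.27. In bulk RNA such as this, fewer cells of a type and less RNA per cell cannot be told apart, and the part of epithelial RNA in the differences of UPK1B and SLC12A1 was not tested. DLEC1, named for its loss in lung and oesophageal cancer, had 76.2, 69.8 and 35.6 CPM in FE sperm and 213, 172 and 136 CPM in FCON sperm, a difference of -1.52 ± 0.44. SERPINI1, the protease inhibitor neuroserpin, had 1.84, 2.79 and 2.15 CPM in FE sperm and 4.19, 5.25 and 234 CPM in FCON sperm. Its difference of -5.17 ± 1.55 was -0.98 without FCON replicate 3, which alone was high.

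**Figure D3:**
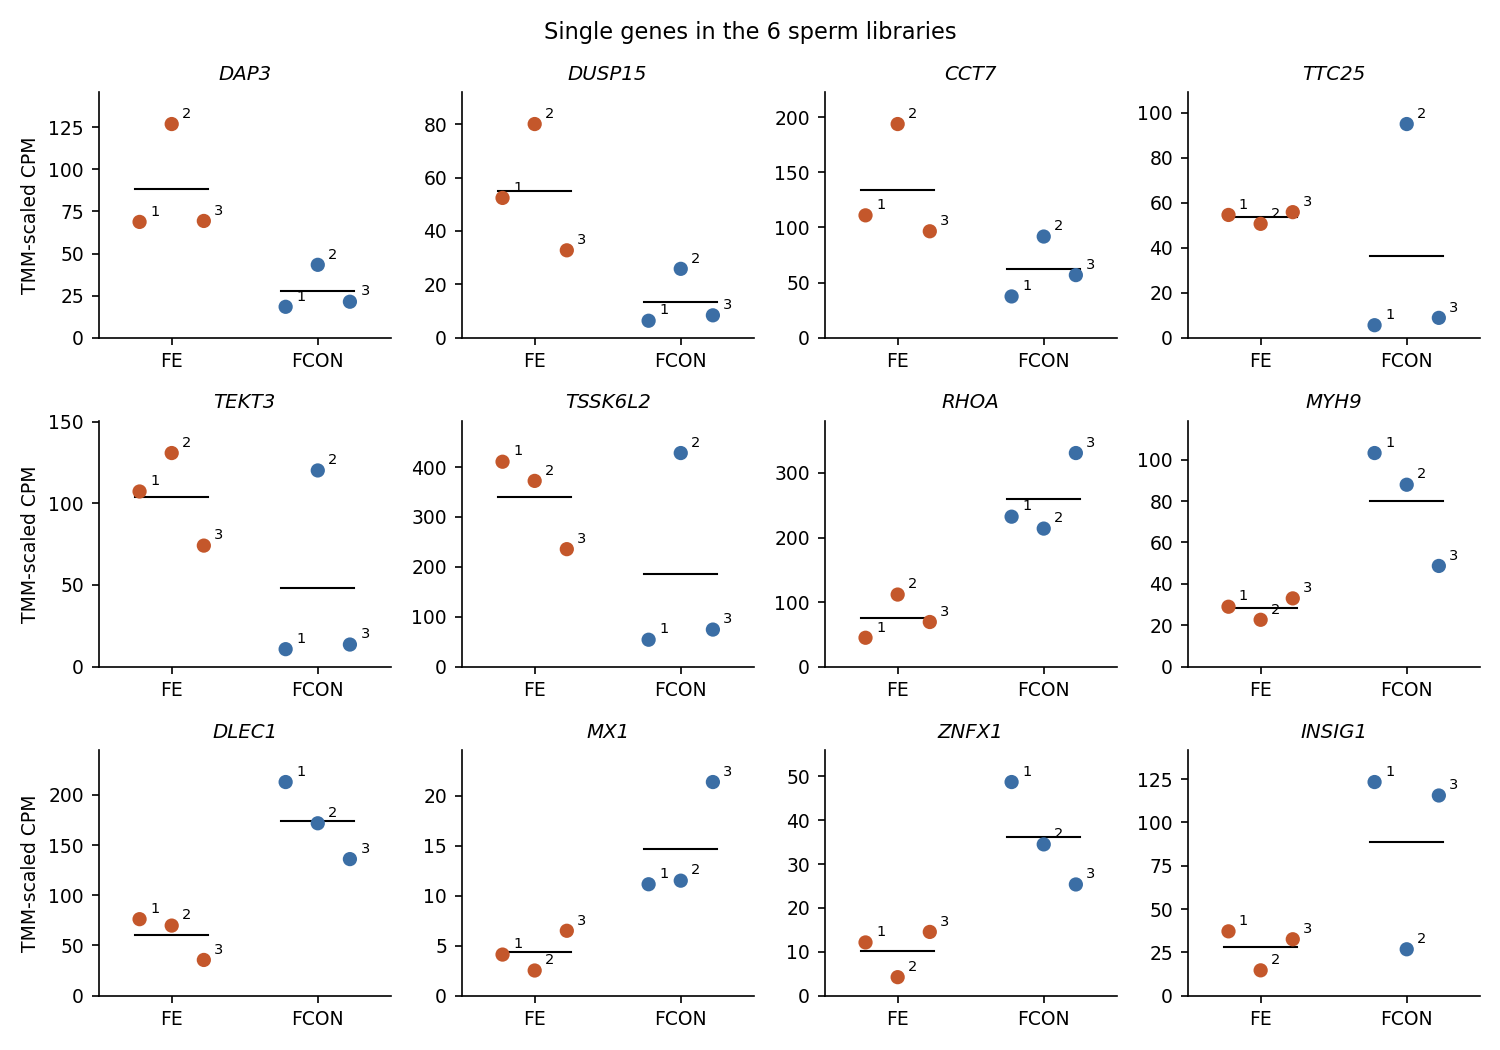
TMM-scaled CPM (y axis) of 12 genes, 1 numbered point per library, FE left of FCON, with lines at the group means. FE and FCON do not overlap in DAP3, DUSP15, CCT7, RHOA, MYH9, DLEC1, MX1 and ZNFX1, whereas FCON replicate 2 lies among or beyond the FE points in TTC25, TEKT3, TSSK6L2 and INSIG1.

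Genes of sperm structure were, in the median, low in FCON replicates 1 and 3, high in FCON replicate 2, and in between in all FE libraries. Over the 168 tested members of 8 lists of sperm genes, each gene counted once, the median level was 20.2, 23.6 and 18.9 CPM in FE sperm and 6.43, 30.5 and 9.96 CPM in FCON sperm. FCON replicate 1 was the lowest library for 63.7% of them, against 24.2% of all tested genes, and FCON replicate 2 was the highest for 44.0%, against 19.2%. The median log2 difference of the 168 genes was 0.28, against -0.09 over all genes, and 3 had an unadjusted p below 0.05 on the higher side and 1 on the lower side. FE lay above FCON without overlap in 6 and below it in 3, against 3.79% and 6.51% of all tested genes. The 27 listed late spermatid and sperm markers, of which the 22 tested are among the 168, had the same order, with summed levels of 2433, 2587 and 2087 CPM in FE sperm and 602, 3661 and 825 CPM in FCON sperm. An alternative fit with the level of these markers as a covariate called 0 genes higher and 0 lower. The fit without it also called 0 and 0, so these counts cannot show what the covariate changed. How far the amount of sperm RNA in a library set the other sperm lists was not tested as such. Not all 8 lists were particular to sperm. Over the acrosome and egg-fusion list rooster livers summed to 1589 to 3396 FPKM, against 608 to 2839 FPKM in the sperm libraries. The ion channel list held 487 to 2501 FPKM in rooster liver and 329 to 2486 FPKM in sperm. The chromatin list held 373 to 870 FPKM and 277 to 1093 FPKM. By contrast, the radial spoke list held 31.9 to 84.3 FPKM and 300 to 3650 FPKM.

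The axoneme is the microtubule core of the tail, and dynein arms bend it. The 46 listed genes of axonemal dyneins and their assembly summed to 854, 1196 and 713 CPM in FE sperm and 238, 1201 and 308 CPM in FCON sperm. Of the 31 tested, 25 had a positive and 6 a negative difference, with a median of 0.44, and the sign turned to a median of -0.05 under 1 of 19 other settings. TCTE1, a subunit of the nexin-dynein regulatory complex, had 57.6, 70.2 and 21.2 CPM in FE sperm and 4.74, 25.5 and 9.12 CPM in FCON sperm, a difference of 1.92. DNAAF2, which assembles dynein arms before transport, had 33.6, 64.5 and 15.5 CPM in FE sperm and 3.45, 19.5 and 3.69 CPM in FCON sperm, a difference of 2.08. These were the list's 2 members with an unadjusted p below 0.05, and in both FE replicate 3 was below FCON replicate 2. TTC25, a docking protein of the outer dynein arm, had 54.6, 50.6 and 55.8 CPM in FE sperm and 5.54, 94.96 and 8.80 CPM in FCON sperm, a difference of 0.56 ± 0.94. Its FE libraries lay close together, while its FCON libraries spanned all of them.

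Radial spokes, the central pair and the proteins inside the doublet microtubules were covered by 66 listed genes that summed to 2431, 2905 and 2066 CPM in FE sperm and 631, 3568 and 837 CPM in FCON sperm. Of the 50 tested, 39 had a positive and 11 a negative difference, with a median of 0.30 that ranged from -0.12 to 1.95 over 19 other settings. TEKT3, a tektin filament protein of the doublets, had 107, 131 and 74.1 CPM in FE sperm and 10.7, 120 and 13.5 CPM in FCON sperm, a difference of 1.11. MORN3 had 133, 122 and 102 CPM in FE sperm and 29.5, 195 and 35.5 CPM in FCON sperm, a difference of 0.46. TPPP2 had 564, 498 and 580 CPM in FE sperm and 202, 957 and 262 CPM in FCON sperm, a difference of 0.21. In all 3 genes the FE libraries lay above FCON replicates 1 and 3, and in MORN3 and TPPP2 below FCON replicate 2. CFAP58, a cilia- and flagella-associated protein, went the other way, with 10.4, 12.3 and 15.7 CPM in FE sperm and 29.1, 51.3 and 20.9 CPM in FCON sperm, a difference of -1.40 ± 0.44. It was the list's only member with an unadjusted p below 0.05, and its groups did not overlap. Of the 50 tested, 1 lay above and 1 below without overlap, against 3.79% and 6.51% of all tested genes.

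**Figure D4:**
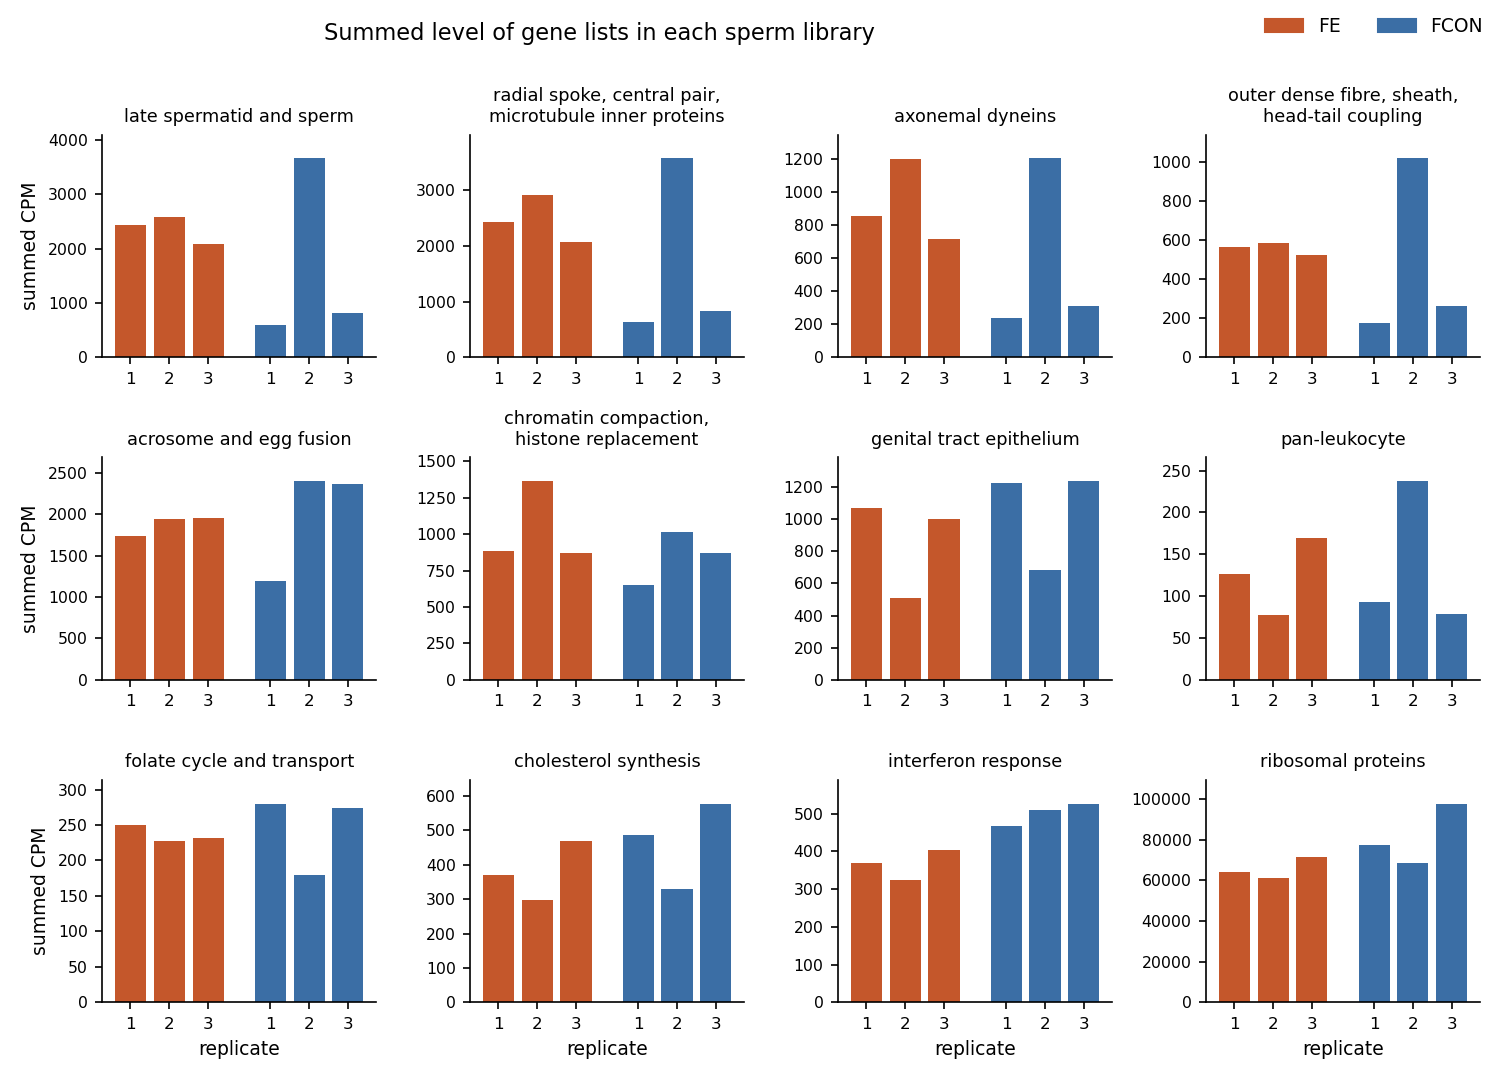
Summed level (TMM-scaled CPM, y axis from 0) of all listed members of 12 gene lists, tested or not, 1 bar per library, FE replicates left of FCON replicates. In the late spermatid and tail lists FCON replicate 2 stands at or above the FE libraries and FCON replicates 1 and 3 below them, and only in the interferon list of these 12 are all FE bars below all FCON bars.

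Leaving out FCON replicate 2 changed the result of the test. edgeR then called 154 genes higher (1.75%) and 2 lower (0.0227%), against 0 and 0 with all 6 libraries. Leaving out any of the other 5 libraries left the count at 0. Of the 168 sperm-list genes 25 (14.9%) were among the 154, and the median difference of all 168 was 1.42. TEKT3 was 3.12 higher (adjusted p = 0.0363), TTC25 2.92 higher (adjusted p = 0.0363), FAM187A 2.77 higher (adjusted p = 0.0363), TSSK6L2 2.43 higher (adjusted p = 0.0409) and DNAAF2 3.42 higher (adjusted p = 0.0465) in that setting. DAP3 at 2.18 (adjusted p = 0.0491) and DUSP15 at 2.92 (adjusted p = 0.0375) were also called, as was CDC20, an activator of the anaphase-promoting complex, at 3.35 (adjusted p = 0.0439). Of all tested genes 27 had no count in FCON replicates 1 and 3, and 5 of these were among the 154; their fitted differences depend on the prior count and bound nothing. The 2 lower genes were MCF2, at -1.95 (adjusted p = 0.0483), and LOC112530473. All 3 FE libraries lay above both FCON replicates 1 and 3 in 60.1% of the sperm-list genes, against 20.3% of all genes, and below both in 4.17%, against 16.5%. FCON replicate 2 was labelled like the other FCON libraries, so these calls hold for 2 FCON libraries and not for the diet group as labelled.

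Other structures of the sperm cell had medians from -0.12 to 0.37. The 12 tested genes of outer dense fibres, sheath and head-tail coupling had 6 positive and 6 negative differences and a median of -0.12, and FCON replicate 2 was the highest library for 10 of them. CABYR, a calcium-binding protein of the fibrous sheath, had 246, 258 and 187 CPM in FE sperm and 45.9, 330 and 79.3 CPM in FCON sperm, a difference of 0.60. The 17 acrosome and egg-fusion genes had 11 positive differences and a median of 0.37, and ACTL7A, an actin-like protein of the acrosome, had an unadjusted p below 0.05 at 1.92. PLCZ1 had 102, 108 and 239 CPM in FE sperm and 109, 439 and 131 CPM in FCON sperm, so its groups overlapped and FCON replicate 2 was the highest library. The 18 genes of ion channels, signalling and tail energy had 10 positive differences and a median of 0.13. CKB, creatine kinase B, had 466, 1080 and 258 CPM in FE sperm and 63.9, 402 and 94.1 CPM in FCON sperm, a difference of 1.69, with overlap because FE replicate 3 was below FCON replicate 2. TSSK6L2 had 411, 372 and 235 CPM in FE sperm and 54.0, 428 and 74.3 CPM in FCON sperm, a difference of 0.87.

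The listed chromatin genes, in the median, differed less between libraries than the listed tail genes. The 21 tested genes of chromatin compaction and histone replacement had 12 positive and 9 negative differences, a median of 0.35 and a median SD within groups of 0.50, against 0.63 over all genes. In 4 of them FE lay above FCON without overlap, against 3.79% of all tested genes, and these were H2AFV, BRD2, H2AFJ and H1FX, chosen here after their values were seen. H2AFV, a histone H2A variant, had 93.5, 132 and 77.1 CPM in FE sperm and 67.1, 65.3 and 61.0 CPM in FCON sperm, a difference of 0.65. BRD2, a bromodomain protein that binds acetylated histones, had 84.0, 138 and 85.5 CPM in FE sperm and 76.5, 53.2 and 63.1 CPM in FCON sperm, a difference of 0.67. FE replicate 2 was the highest library in both. The median of this list was below 0 under 2 of 19 other settings. H2AFB2, by its symbol also a histone H2A gene, was outside the list and had the order of the tail genes. It averaged 586 FPKM in sperm, with a median of 0 in the livers. Its levels were 1161.5, 1360 and 712 CPM in FE sperm and 74.4, 1061 and 144 CPM in FCON sperm. Its difference was 1.34 and its SD within groups 1.45. The 18 germ cell RNA-binding and piRNA genes had 10 positive differences and a median of 0.09.

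The folate cycle and the methionine cycle are the pathways that dietary folate feeds, and none of their genes passed the test. The 28 listed genes of the folate cycle and transport summed to 251, 227 and 232 CPM in FE sperm and 280, 179 and 274 CPM in FCON sperm. The 17 tested had 10 positive and 7 negative differences and a median of 0.10. SHMT1, the cytosolic serine hydroxymethyltransferase that loads folate with a carbon unit, had 6.77, 5.71 and 5.54 CPM in FE sperm and 5.23, 2.10 and 4.10 CPM in FCON sperm, a difference of 0.66 ± 0.52. MTHFS, which returns 5-formyl-folate to the active pool, had 2.46, 0.612 and 3.15 CPM in FE sperm and 4.49, 4.88 and 5.95 CPM in FCON sperm, a difference of -1.28. These were the 2 members without overlap, 1 on either side, against 3.79% of all tested genes above and 6.51% below.

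The 24 genes of the methionine cycle, transsulfuration, choline and betaine had 10 positive and 14 negative differences and a median of -0.27. MAT2A, the methionine adenosyltransferase of non-liver tissues, had 14.6, 17.5 and 17.3 CPM in FE sperm and 12.2, 7.30 and 14.5 CPM in FCON sperm, a difference of 0.54 ± 0.41. FE lay just above FCON in all libraries. MAT2A was the list's 1 member above without overlap, and 1 other lay below, against 3.79% and 6.51% of all tested genes. AHCY, which clears S-adenosylhomocysteine, differed by -0.39, BHMT, which remethylates homocysteine with betaine, by -0.56 and MAT1A, the liver form of the adenosyltransferase, by -0.33. The sign of each of these last 3 turned under at least 1 other setting.

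DNA and RNA methylation genes were split. The 12 tested writers, erasers and readers of DNA methylation had 6 positive and 6 negative differences and a median of -0.01. N6AMT1, a methyltransferase proposed to write N6-methyladenine in DNA, had 11.9, 14.0 and 14.3 CPM in FE sperm and 23.0, 17.5 and 19.8 CPM in FCON sperm, a difference of -0.58 ± 0.36. ALKBH1, a dioxygenase proposed to erase the same mark, had 6.26, 8.64 and 4.70 CPM in FE sperm and 2.40, 4.70 and 3.78 CPM in FCON sperm, a difference of 0.84 ± 0.51. The FE values of N6AMT1 were all below FCON, and those of ALKBH1 were all above FCON, the lowest of them by less than the digits printed. They were the list's only members without overlap, 1 on either side, against 3.79% of all tested genes above and 6.51% below. DNMT1, the maintenance DNA methyltransferase, differed by -0.14, a sign that turned under 6 other settings. The 16 genes of RNA m6A methylation had 5 positive and 11 negative differences and a median of -0.19. METTL14, a subunit of the m6A methyltransferase, was the list's only gene without overlap, at -0.86. Of all tested genes 6.51% lay below in this way.

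**Figure D5:**
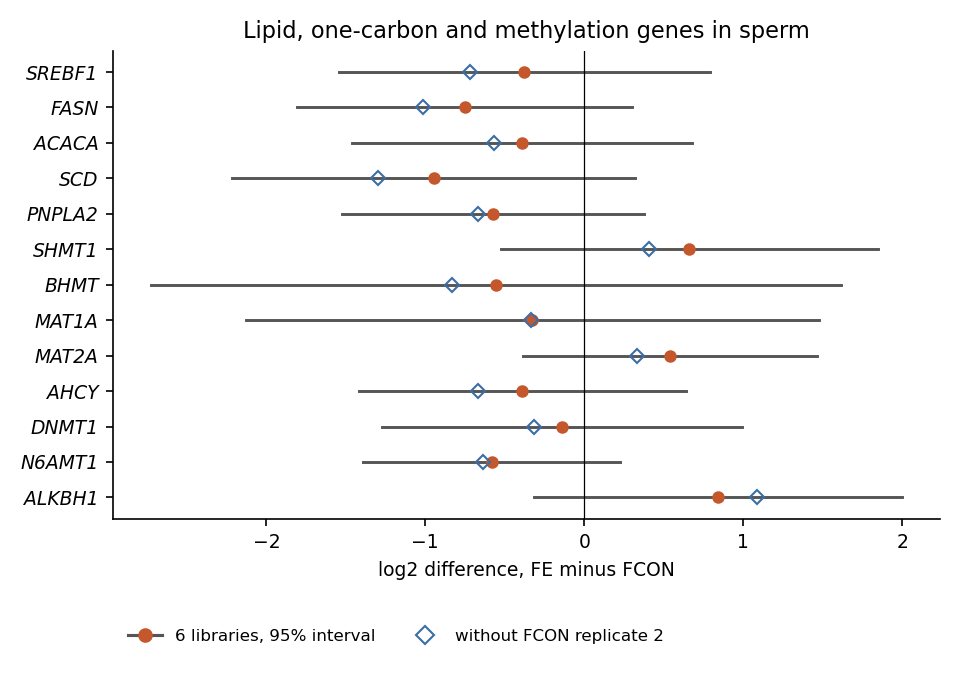
Log2 difference FE minus FCON (x axis) of 13 lipid, folate, methionine and methylation genes (y axis); points with lines are the fit with 6 libraries and its 95% interval, open diamonds the value without FCON replicate 2. Every interval includes 0, and the estimates run from -0.95 for SCD to 0.84 for ALKBH1.

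The medians of the lipid lists were negative, and some turned under other settings. No lipid gene was called in the fit of all 6 libraries. The 24 genes of fatty acid synthesis and desaturation had 5 positive and 19 negative differences and a median of -0.38, which ranged from -0.59 to -0.12 over 19 other settings. Without FCON replicate 2, edgeR called 1 of the 24 higher. SREBF1, the transcription factor that turns on lipogenesis, had 68.2, 54.3 and 58.0 CPM in FE sperm and 119, 30.0 and 85.7 CPM in FCON sperm, a difference of -0.38 ± 0.51. SCD, the stearoyl-CoA desaturase, had 16.4, 8.36 and 10.6 CPM in FE sperm and 34.2, 8.54 and 25.5 CPM in FCON sperm, a difference of -0.95 ± 0.56. In both genes FCON replicate 2 was the lowest FCON library and lay within or below the FE values. INSIG1, which holds back the activation of sterol-regulated transcription factors, had 37.1, 14.6 and 32.6 CPM in FE sperm and 123, 26.8 and 116 CPM in FCON sperm, a difference of -1.65 ± 0.63, with the same overlap. FASN, fatty acid synthase, differed by -0.75 ± 0.46, ACACA, acetyl-CoA carboxylase, by -0.39 and PNPLA2, the adipose triglyceride lipase, by -0.57. ACACB, another acetyl-CoA carboxylase gene, went the other way, with 142, 204 and 115 CPM in FE sperm and 7.26, 169 and 16.6 CPM in FCON sperm. Its difference was 1.26, and that of ACSS2, an acetyl-CoA synthetase, was 0.84. Without FCON replicate 2 these were 3.69 and 2.75 (edgeR adjusted p = 0.0363 in both). With 1 of the 24 called in that setting, ACACB and ACSS2 were not both on that list. Without FCON replicate 1 the sign of SREBF1 turned, to 0.058, and that of ACACA, to 0.19.

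All 20 tested genes of cholesterol synthesis had a negative difference, with a median of -0.40 that ranged from -0.61 to -0.17 over 19 other settings. Over all 23 listed genes the sums were 371, 298 and 470 CPM in FE sperm and 487, 329 and 578 CPM in FCON sperm, so the groups overlapped. None had an unadjusted p below 0.05, and PMVK, phosphomevalonate kinase, and GGPS1, which makes geranylgeranyl diphosphate, were the 2 without overlap, both lower in FE, as 6.51% of all tested genes were. Of 31 genes of fatty acid oxidation and ketone bodies, 8 had a positive and 23 a negative difference, with a median of -0.27. FE lay below FCON without overlap in 4 of the 31 and above it in 0, against 6.51% and 3.79% of all tested genes. PDK4, a kinase that inhibits pyruvate dehydrogenase, was 1 of the 4. It had 6.42, 4.49 and 7.85 CPM in FE sperm and 14.8, 10.4 and 15.7 CPM in FCON sperm, a difference of -1.12. The 13 genes of lipid-sensing receptors and their coactivators had 4 positive and 9 negative differences and a median of -0.45. The sign of that median turned under 3 of 19 other settings. FE lay above FCON without overlap in 1 of the 13 and below it in 2, against 3.79% and 6.51% of all tested genes. NR1H3, the liver X receptor, was 1 of the 2 below, at -0.70. The 13 genes of triglyceride and phospholipid assembly had a median of -0.10, near the -0.09 of all tested genes, and the 16 lipase genes one of -0.23. The signs of these medians turned under 6 and 5 of 19 other settings. In the lipase list FABP1, the liver fatty acid-binding protein, had 4.11, 5.98 and 1.65 CPM in FE sperm and 1.23, 0.872 and 0.924 CPM in FCON sperm, a difference of 1.95, without overlap at low levels. Of the 16 lipase genes 1 lay above and 1 below without overlap, against 3.79% and 6.51% of all tested genes. PISD, which makes phosphatidylethanolamine in mitochondria, differed by -1.98.

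Interferon-response genes had the most negative median of the 19 pathway lists. Of 24 tested genes, 4 had a positive and 20 a negative difference, with a median of -0.56 that ranged from -0.79 to -0.35 over 19 other settings, and the sums over 29 listed genes were 369, 325 and 403 CPM in FE sperm and 467, 509 and 527 CPM in FCON sperm. These CPM sums did not overlap, and FE lay below FCON without overlap in 8 of the 24 genes, against 6.51% of all genes. The separation of the sums depended on the scaling. In FPKM the list summed to 184, 97.9 and 330 in FE sperm and 152, 349 and 440 in FCON sperm, with overlap. MX1 (chromosome 1, 110239751 to 110260516), a dynamin-like antiviral GTPase, had 4.11, 2.52 and 6.49 CPM in FE sperm and 11.1, 11.5 and 21.4 CPM in FCON sperm, a difference of -1.74 ± 0.51 (edgeR adjusted p = 0.906). ZNFX1, a helicase that senses viral RNA, had 12.1, 4.22 and 14.5 CPM in FE sperm and 48.7, 34.5 and 25.3 CPM in FCON sperm, a difference of -1.81 ± 0.53. CMPK2, a mitochondrial nucleotide kinase induced by interferon, differed by -1.89 and TRIM25, the ubiquitin ligase of the RIG-I pathway, by -1.10. These 4 were the genes with an unadjusted p below 0.05, and in each all FE libraries were below all FCON libraries. The 19 listed pan-leukocyte markers, which moved in another order, summed to 126, 77.4 and 169 CPM in FE sperm and 92.8, 238 and 79.1 CPM in FCON sperm.

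Of 75 tested cytosolic ribosomal protein genes, 4 had a positive and 71 a negative difference, with a median of -0.38 that ranged from -0.53 to -0.06 over 19 other settings. All 76 listed genes summed to 63893, 61127 and 71434 CPM in FE sperm and 77595, 68726 and 97790 CPM in FCON sperm, and FCON replicate 2 lay below FE replicate 3. None had an unadjusted p below 0.05. Their share of raw counts was 5.95%, 3.27% and 11.4% in FE sperm and 4.99%, 10.3% and 11.8% in FCON sperm, which puts the groups in no order.

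The other stress and energy lists also held no call. The 72 nuclear genes of oxidative phosphorylation had 46 positive differences and a median of 0.12, and 18 glycolysis genes had 8 and a median of -0.03. The 45 heat shock and chaperone genes had 19 positive and 26 negative differences and a median of -0.13. Of the 45, FE lay above FCON without overlap in 1 and below it in 5, against 3.79% and 6.51% of all tested genes. CCT7, a subunit of the chaperonin that folds actin and tubulin, had 111, 194 and 96.6 CPM in FE sperm and 37.4, 91.8 and 56.8 CPM in FCON sperm, a difference of 1.11, and HSPB9, a small heat shock protein, differed by 1.85; both had an unadjusted p below 0.05. The 53 ubiquitin and proteasome genes had 26 positive and 27 negative differences. Among 38 antioxidant and iron genes 27 had a negative difference, with a median of -0.29, whereas SELENOP2, a selenoprotein P, differed by 1.52. The 25 cell cycle genes had 20 positive differences and a median of 0.52. ESPL1, the separase that cuts cohesin, was at 1.26 and was the only 1 of the 25 without overlap, against 3.79% of all tested genes above. CDC20 had 75.9, 110 and 39.4 CPM in FE sperm and 4.25, 63.4 and 10.4 CPM in FCON sperm, with FCON replicates 1 and 3 far below the other 4 libraries.

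No marker of a further cell type passed the test. The 6 tested heterophil markers had 5 positive differences and a median of 0.62, which stayed positive under 19 other settings. EXFABP, an extracellular fatty acid-binding protein, was the most abundant at 46.4 FPKM and differed by 0.54 ± 1.09. GFI1 had the largest difference, at 1.42, with 24.6, 46.7 and 17.1 CPM in FE sperm and 1.48, 27.7 and 3.67 CPM in FCON sperm. FCON replicate 2 lay among its FE values, as in many tail genes. Without that library GFI1 was called, at 3.50 (edgeR adjusted p = 0.0465). Of the 19 listed heterophil markers, 6 had no count in any sperm library. The 12 pan-leukocyte genes had a median of 0.02, 6 macrophage genes -0.08, 3 T and NK cell genes 0.50 and 5 B and plasma cell genes 0.42. The 8 erythroid genes had a median of 0.29, 7 genes of testicular somatic cells 0.08, 6 of spermatogonia and meiotic germ cells 0.31 and 4 of stroma 0.41. The 33 listed hepatocyte markers summed to 1278, 594 and 839 CPM in FE sperm and 1529, 677 and 885 CPM in FCON sperm, and the 20 tested had a median of -0.06. Their share in the differences above was not tested.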

How the data were processed

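Per the labels' protocols, poly(A) RNA of sperm was sequenced as paired ends on an Illumina NovaSeq. The submitters' processing notes name cutadapt, HISAT2 and StringTie without versions; for the genome build and strand setting, the sources used here give nothing. The deposited table holds raw read counts and FPKM per gene, as the authors made them. Coordinates are those of that table. Gene biotypes came from a RefSeq table of GRCg7b.

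Counts of the 6 sperm libraries were fitted in R 4.3.3 with edgeR 4.0.16 (TMM factors, robust quasi-likelihood test, Benjamini-Hochberg over 8811 genes with at least 1 FPKM in at least 3 libraries, threshold 0.05). CPM are TMM-scaled. DESeq2 1.42.0 and limma 3.58.1 served as alternatives, with pseudocounts of 1 and 0.1 for FPKM. Figures used Python 3.11.15 and matplotlib 3.10.9. The fit was tested on simulated counts. In all, 16 planned and 3 added alternatives were run, the added ones chosen after seeing the data.

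Library totals were 23762812 to 33692497 counts. Deviations from the group mean correlated weakly between same-numbered FE and FCON libraries (0.119, 0.179 and 0.243 across genes). Each was the highest for its FE library, so the numbers were treated as pairs in an alternative fit. Before centring, each FE library correlated most, among FCON libraries, with replicate 2. The labels do not say what a number shares.

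Genes and lists were chosen with earlier results of these data known. Named were the 10 smallest p-values in each direction at a mean of at least 2 FPKM, the 5 largest differences without overlap in each direction, the most abundant genes, panel genes, and the 3 most abundant members of each list with members at an unadjusted p below 0.05; few of these are printed. List members named for not overlapping were chosen after their values were seen. Of 24 panel genes, 23 were in the table and 15 passed the filter; 4 panel genes are not reported here. No symbol of the list of mitochondrially encoded mRNAs matched. Overlapping or antisense genes cannot be told apart without the strand setting.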

Additional observations from a re-analysis of the deposited data

How the results depend on the processing

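With the replicate number as a block, edgeR called 0 genes either way, as without it, and 779 genes had an unadjusted p below 0.05, against 298; the block turned the sign of BHMT, to 0.086, and changed no call. The count of 298 became 55 with rRNA genes left out and library totals instead of TMM. It became 173 with limma on log2(FPKM + 0.1), 1289 with limma and sample weights, 522 with no filter and 124 at 5 FPKM or more. Without both FE replicate 2 and FCON replicate 1 it was 132. Leaving out each library in turn gave 119 to 1343 such genes, 0 to 154 called higher and 0 to 2 called lower. limma on log2(FPKM + 1) called 1 gene higher. The 908 genes without overlap became 397 with library totals without rRNA genes and 247 with limma on FPKM at either pseudocount. They became 1501 with no filter, of 17619 tested, and 410 at 5 FPKM or more, of 4009 tested. Without both libraries the count was 2591, and without 1 library it was 3194 at most and 1300 at least. Groups of fewer libraries separate more often by order alone, so these last counts cannot be set beside 908 as an effect of processing. Without both libraries the differences of SREBF1, ACACA, BHMT, MAT1A, DNMT1, LOC112530621 and TPPP2 were 0.13, 0.33, 0.66, 0.46, 0.64, 0.68 and -0.092. With the level of the sperm list as a covariate, those of SREBF1, ACACA, BHMT, AHCY, DNMT1, LOC112530621 and TPPP2 were 0.50, 0.054, 0.26, 0.21, 0.31, 0.079 and -0.19. With limma and sample weights, BHMT, MAT1A, DNMT1 and LOC112530621 were at 0.71, 0.62, 0.23 and 0.089. DNMT1 was at 0.11 with library totals without rRNA genes. Leaving out 1 library in turn, the differences ranged from -0.72 to 0.058 for SREBF1, -0.60 to 0.19 for ACACA, -0.97 to 1.04 for BHMT, -0.64 to 0.35 for MAT1A, -0.32 to 0.48 for DNMT1, -1.03 to 0.38 for LOC112530621 and -0.16 to 1.27 for TPPP2. The cause of each turn was not tested. The median of all genes was -0.16 and -0.21 with limma on FPKM, against -0.09.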

Other observations

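A few abundant, uncharacterized genes differed widely between libraries of the same diet. LOC107052718 (chromosome 1, 32726924 to 32731659) had 963127, 0 and 0 counts in FE replicates 1 to 3 and 2022, 27174 and 32218 counts in FCON replicates 1 to 3. Its neighbour LOC107052719 had 5108, 145 and 3.76 CPM in FE sperm and 4.25, 0.912 and 267 CPM in FCON sperm. LOC112531143 had 1927, 19905 and 94.1 CPM in FE sperm and 8232, 161 and 2742 CPM in FCON sperm. In none of the 3 did the groups separate.

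The 356 tested genes of chromosome Z had a median log2 difference of -0.32, FE minus FCON, against -0.09 over all 8811 tested genes. Of the 356, 8 had an unadjusted p below 0.05 (edgeR). Over all 8811 it was 298, with 1.27% higher and 2.11% lower. LOC112530621 was the most abundant of the chromosome Z genes. An alternative fit left it out together with LOC107054637 on chromosome 14 and the 3 Gag genes. That fit called 0 genes and had 294 at an unadjusted p below 0.05.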
